A study of Mus musculus with 12 samples.

Results

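In mouse myeloid progenitors carrying extra HMGN1, 472 of 60072 accessible regions differed from wild-type cells both before and after the cells were set to mature, at places where wild-type cells stayed within 2-fold over that time. These peaks were chosen by level. Each library's RPKM (reads in a peak scaled to its width and to the size of the library) was divided by the median over all peaks, so that 1 is the level of the median peak, and the result is called the scaled level here. A peak was taken when its wild-type mean at 96 h was 0.5 to 2 times that at 0 h, when at least 1 group mean reached 1, and when the HMGN1-OE mean was at least 2-fold above, or at most 0.5 times, the wild-type mean at 96 h and at 0 h alike. This gave 233 lasting peaks higher in HMGN1-OE and 239 lower. The differences between genotypes were thus the basis of the choice, and they are described without a test.

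The HMGN1-OE cells came from transgenic mice that overexpress human HMGN1, and the wild-type cells from littermates. In both, bone marrow progenitors had been immortalized with a retrovirus carrying an estrogen receptor-HoxB8 fusion and were grown with interleukin 3. The groups were HMGN1-OE at 96 h, HMGN1-OE at 0 h, wild-type at 96 h and wild-type at 0 h, with 3 libraries in each and 12 in all. At 0 h the medium held estradiol, and at 96 h estradiol had been absent for that time. Replicates are called biologically independent in the labels, but the number of immortalized lines per genotype is not given in the sources used here, so genotype and the source of cells cannot be told apart. Age and sex of the mice were not given in the sources used here, and fewer cells with an open site cannot be told apart from less opening per cell.

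ATAC-seq reads accessible chromatin through a transposase that cuts exposed DNA between nucleosomes, so a peak marks a promoter, enhancer or other site that proteins hold open. HMGN1 is a non-histone protein that binds nucleosomes, competes with linker histone H1 and loosens chromatin. The HoxB8 fusion keeps progenitors immature while estradiol is present, and its loss lets them mature into myeloid cells, a course in which many regulatory sites open or close. The peaks described here were taken from those that stayed within 2-fold over that time in wild-type cells. Peaks lie on the mouse build mm9, and the gene tables used here describe another build, so sites are given by position only, without gene names, exon or intron annotation, or sequence, and the labelled cell type was not checked against marker genes.

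Between 21581528 and 35560463 reads stood behind each library, and peaks held 24.7% to 50.02% of them. The highest share, 50.02%, was that of wild-type replicate 1 at 96 h, whose group otherwise had 39.7% and 35.1%. Leaving it out gave 220 higher and 251 lower lasting peaks. Of these, 192 and 225 were among the 233 and 239 chosen on all libraries. HMGN1-OE libraries at 96 h had 24.7% to 29.5% of reads in peaks, and their part in the results was not tested. The numbers of lasting peaks depended on how libraries were put on a common scale. TMM scaling in the rule gave 303 higher and 193 lower peaks, and RPKM as deposited gave 153 higher and 285 lower. The peaks themselves changed too. Under TMM scaling 208 of the 233 and 172 of the 239 were kept, and on RPKM as deposited 80 and 141.

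Among the 24626 peaks that were steady in wild-type cells and reached a level of 1, 707 stood at least 2-fold higher in HMGN1-OE at 96 h, and 494 did so at 0 h. The 233 higher peaks were 33.0% of those at 96 h and 47.2% of those at 0 h. On the lower side, 502 steady peaks were at most 0.5 times wild-type at 96 h and 939 at 0 h, and the 239 lower peaks were 47.6% and 25.5% of these. Few sites crossed over: 29 steady peaks were at least 2-fold higher in HMGN1-OE at 96 h but at least 2-fold lower at 0 h, and 2 did the opposite. Over all steady peaks the median ratio of HMGN1-OE to wild-type was 0.995 at 96 h and 0.892 at 0 h. The counts at the 2 times were not corrected for that offset. The plot of both ratios shows the lasting peaks in opposite corners, where the rule places them.

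**Figure D1:**
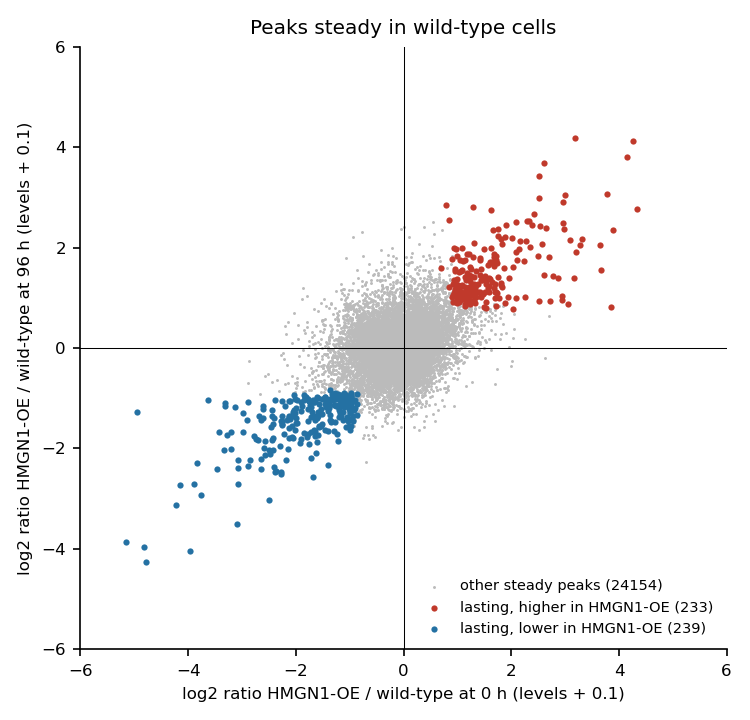
Log2 ratio of HMGN1-OE to wild-type mean scaled level (0.1 added to each) at 96 h (vertical) against 0 h (horizontal), 1 point per peak steady in wild-type cells. The 233 higher (red) and 239 lower (blue) lasting peaks fill the upper right and lower left corners by construction, and the other 24154 steady peaks (grey) surround 0.

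Most higher peaks were weak in wild-type cells and close to the median peak in HMGN1-OE. Their median scaled level over the 3 libraries was 1.23, 1.26 and 1.30 in HMGN1-OE at 96 h, against 0.338, 0.400 and 0.435 in wild-type. At 0 h it was 1.46, 1.51 and 1.60 in HMGN1-OE, against 0.505, 0.458 and 0.421 in wild-type. The genotypes were well apart in every library at this level of summary. The median ratio of HMGN1-OE to wild-type was 2.78 at 96 h and 2.88 at 0 h, and it was larger at 96 h than at 0 h in 110 of the 233. A gap of at least 4-fold at both times was seen in 49 peaks, of at least 8-fold in 18 and of at least 16-fold in 4. In 53 of the 233 the wild-type mean stayed under 0.25 at both times, and in 4 under 0.1. No peak had 0 reads in all 6 wild-type libraries.

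The lower peaks mirrored this, with wild-type cells moderately open and HMGN1-OE cells more closed. Their median scaled level was 0.534, 0.517 and 0.534 in HMGN1-OE at 96 h, against 1.499, 1.51 and 1.60 in wild-type. At 0 h it was 0.415, 0.367 and 0.413 in HMGN1-OE, against 1.55, 1.60 and 1.52 in wild-type. The HMGN1-OE medians lay somewhat higher at 96 h than at 0 h, whereas the wild-type medians overlapped between the times. The median ratio of HMGN1-OE to wild-type was 0.356 at 96 h and 0.260 at 0 h, and the ratio was the more extreme at 96 h in 62 of the 239. The steady peaks as a whole also had a lower median ratio at 0 h, 0.892 against 0.995 at 96 h. At least 4-fold lower at both times were 46 peaks, at least 8-fold lower 12 and at least 16-fold lower 5. At 7 of the lower peaks the wild-type mean was at least 5 at both times, a level that HMGN1-OE means reached at both times in 0 of the 233 higher peaks.

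**Figure D2:**
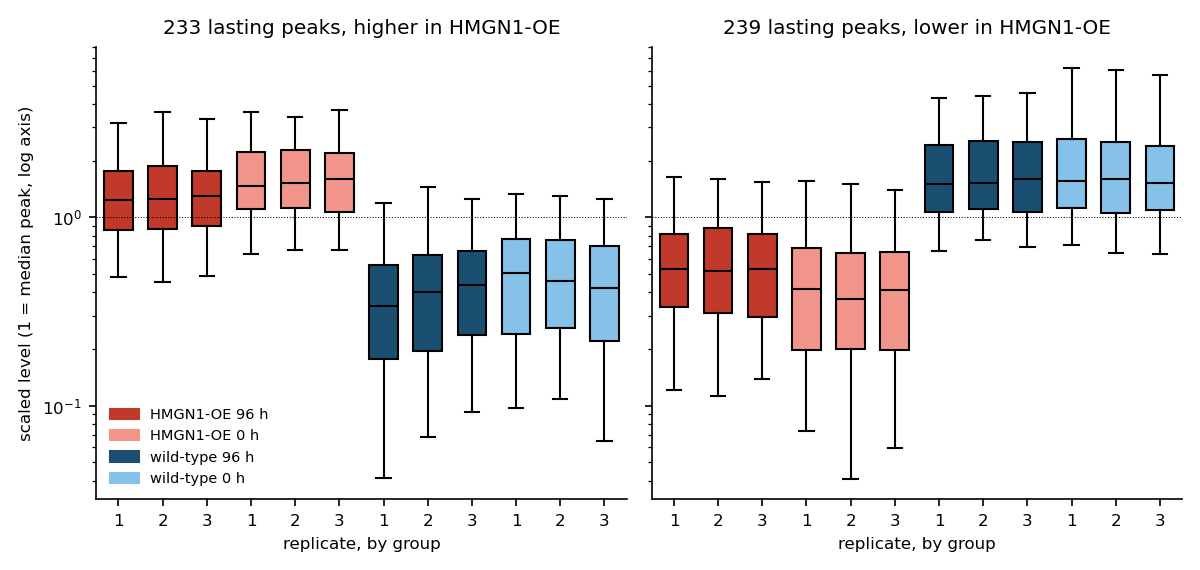
Scaled level (log axis, 1 is the median peak, dotted line) of the 233 higher peaks (left) and 239 lower peaks (right) in each library, with boxes for quartiles, a line for the median and whiskers from the 5th to the 95th percentile. HMGN1-OE medians lie at 1.23 to 1.60 on the left and 0.367 to 0.534 on the right, wild-type medians at 0.338 to 0.505 and 1.499 to 1.60.

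All 3 HMGN1-OE libraries lay above all 3 wild-type libraries at both times in 221 of the 233 higher peaks, and below them in 231 of the 239 lower peaks. Over all 60072 peaks this held for 4.48% and 5.87%, and over the steady peaks for 3.67% and 7.57%. In the limma fit across 57579 peaks, in which all 472 were tested, 223 of the higher peaks were called above 0 at 96 h (11.0% of all tested peaks) and 230 at 0 h (10.8%). Of the lower peaks, 237 were called below 0 at 96 h (11.2% of all) and 228 at 0 h (11.4%). Nothing is read from these counts, because the rule took its members by the same contrasts. On the RPKM as deposited only 133 higher peaks were called at 96 h, where that scaling placed the median log2 fold change of all tested peaks at -0.48, against 0.02 after TMM scaling. The shares over all tested peaks moved with the scaling too. As deposited, 2.01% were above 0 and 46.9% below at 96 h, and 14.2% above and 2.61% below at 0 h. With each library divided by its median, as in the rule, 10.8% were above 0 and 9.67% below at 96 h, and 6.72% above and 19.4% below at 0 h.

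Gaps were ranked by the smaller of the 2 absolute log2 ratios, with 0.1 added to each level. Only peaks with non-overlapping libraries and a largest group mean of at least the median of their set were ranked. By this ranking the widest lasting gap among the higher peaks was on chromosome 12 at 26829959 to 26830714, a peak of 756 bp. Its scaled level at 96 h was 6.25, 5.94 and 5.39 in HMGN1-OE libraries, against 0.237, 0.187 and 0.298 in wild-type. At 0 h the levels were 4.32, 4.24 and 4.02 in HMGN1-OE, against 0.150, 0.143 and 0.0741 in wild-type. The site was thus several times as open as the median peak in all 6 HMGN1-OE libraries and far below it in all 6 wild-type libraries, with ratios of 24.3 at 96 h and 34.2 at 0 h. On chromosome 7 at 18987953 to 18988666, HMGN1-OE libraries stood at 2.49, 2.61 and 1.82 at 96 h, against 0.0866, 0.0566 and 0.0702 in wild-type. At 0 h the values there were 3.82, 3.62 and 3.12 in HMGN1-OE, against 0.0724, 0.0909 and 0.146 in wild-type. The ratio at this site was nearly equal at the times, 32.5 at 96 h and 34.2 at 0 h. Without the added 0.1, its smaller ratio was thus above the 24.3 of the chromosome 12 peak.

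A narrower peak of 314 bp, on chromosome 6 at 135181717 to 135182030, was more open in HMGN1-OE at 96 h, with 2.77, 2.82 and 3.17 against 0.0591, 0.0966 and 0.0399 in wild-type. Before withdrawal, at 0 h, it had 2.03, 1.66 and 1.93 in HMGN1-OE, against 0.231, 0.0689 and 0.0510 in wild-type. The wild-type values rest on 1 to 7 reads per library, so its ratios of 44.8 at 96 h and 16.05 at 0 h are coarse. The peak on chromosome 15 at 93967957 to 93968647 went the other way with time, at 1.53, 1.10 and 1.19 in HMGN1-OE at 96 h, against 0.161, 0.0878 and 0.0544 in wild-type. The 0 h values were 5.37, 4.79 and 5.83 in HMGN1-OE, against 0.210, 0.172 and 0.127 in wild-type. In HMGN1-OE cells this site thus lost most of its opening by 96 h and still stayed 12.6-fold above wild-type.

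The other 6 of the 10 higher peaks with the widest lasting gap lay on chromosomes 2, 1, 10, 17, 2 and 6. Over all 10, the ratio of HMGN1-OE to wild-type was 7.66 to 44.8 at 96 h and 8.84 to 34.2 at 0 h, and widths were 282 to 756 bp. The one on chromosome 10 at 21696109 to 21696472 had uneven HMGN1-OE replicates at 0 h, with 1.65, 0.758 and 1.69 against 0.0568, 0.119 and 0.242 in wild-type.

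Of the lower peaks, the widest lasting gap by the same ranking was on chromosome 1 at 186134055 to 186134696. Its scaled level at 96 h was 0.163, 0.162 and 0.112 in HMGN1-OE libraries, against 4.33, 4.98 and 4.61 in wild-type. The 0 h libraries had 0.140, 0.199 and 0.0777 in HMGN1-OE, against 6.14, 7.20 and 5.99 in wild-type. A site well open in wild-type cells was close to shut in HMGN1-OE cells at both times, with ratios of 0.0314 and 0.0216. Without the added 0.1, 2 peaks on chromosome 12 had a wider gap at their weaker time. Their ratios then were 0.0295 (at 17516683) and 0.0258 (at 18616535). The most open of the lower peaks was on chromosome 7 at 29478407 to 29479014, where HMGN1-OE libraries had 0.861, 0.925 and 0.810 at 96 h, against 13.8, 15.1 and 15.9 in wild-type. At 0 h that peak stood at 0.575, 0.632 and 0.574 in HMGN1-OE, against 20.7, 21.7 and 16.1 in wild-type. With 39 to 54 reads per HMGN1-OE library and 773 to 1360 per wild-type library, its ratios of 0.0579 at 96 h and 0.0305 at 0 h are among the better determined.

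Of the 10 lower peaks with the widest gap, 4 lay on chromosome 12. The peak at 17516683 to 17517392 had 0, 0.0733 and 0.116 in HMGN1-OE at 96 h, against 2.54, 2.73 and 2.51 in wild-type. Its 0 h values were 0.0884, 0.153 and 0 in HMGN1-OE, against 2.81, 2.83 and 2.51 in wild-type. Wild-type levels were thus nearly the same in all 6 libraries, whereas the HMGN1-OE libraries held 0 to 11 reads each. At 18616535 to 18617159, HMGN1-OE libraries at 96 h had 0.101, 0.0666 and 0, against 1.67, 2.17 and 2.65 in wild-type. At 0 h the 3 HMGN1-OE libraries together held 2 reads there, against 749 reads in wild-type, a ratio of 0.00252 with an exact 95% counting interval of 0.000304 to 0.00912. That interval covers counting error only. The peak at 20926577 to 20927377 had 0.170, 0.143 and 0.102 in HMGN1-OE at 96 h, against 1.40, 1.09 and 1.88 in wild-type, and the one at 29975734 to 29976243 had 1.05, 0.898 and 0.945 against 6.59, 7.22 and 6.63. For all 10, ratios were 0.0243 to 0.141 at 96 h and 0.00244 to 0.144 at 0 h.

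**Figure D3:**
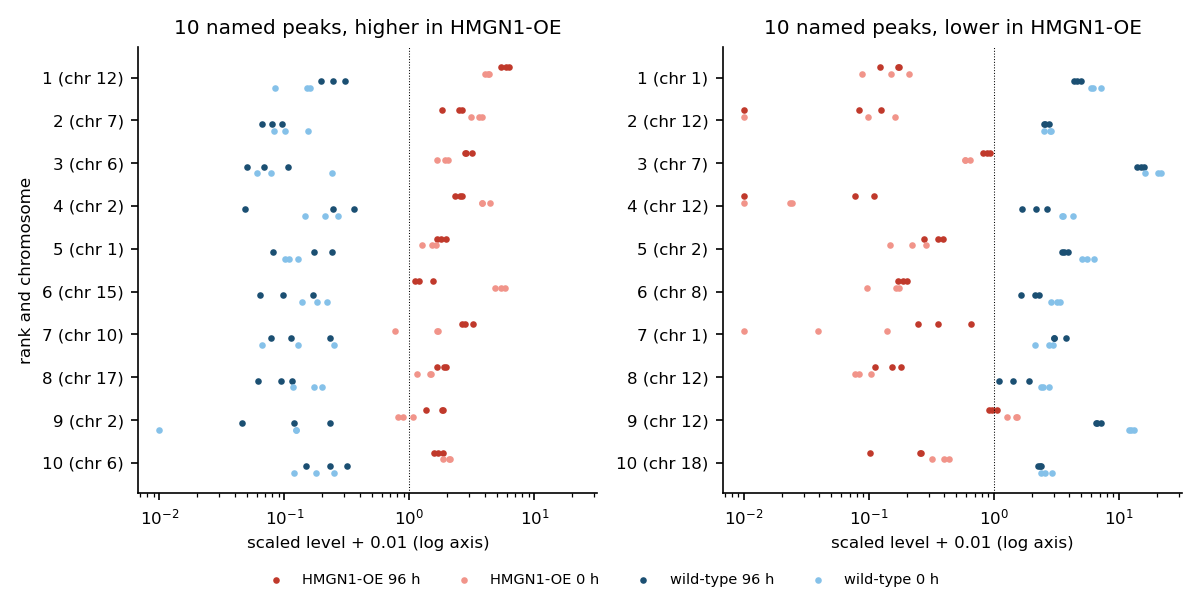
Scaled level (0.01 added, log axis) of the 10 higher (left) and 10 lower (right) lasting peaks with the widest gap at both times, ranked from the top, with 1 point per library and 3 libraries per group. At every one of the 20 peaks the HMGN1-OE points (red at 96 h, pink at 0 h) lie on one side of the wild-type points of the same time (dark and light blue).

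Some peaks lay close to the 2-fold limit on either side. Just inside it were a peak on chromosome 6 at 99138434, with ratios of 2.00 at 96 h and 2.34 at 0 h, and one on chromosome 5 at 142516035, with 7.86 and 2.00. Just outside were peaks on chromosome 7 at 139547858 and chromosome 8 at 48884628, whose smaller ratio also rounds to 2.00. On the lower side, peaks on chromosome 12 at 80294380 and chromosome 16 at 16438639 had a ratio of 0.499 at 0 h and were taken. Peaks on chromosome 10 at 116882163 (0.501 at 96 h) and chromosome 17 at 8388658 (0.502 at 0 h) were not.

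To see how far a difference chosen in some libraries was found in others, the rule was applied to 2 libraries per group and the remaining library of each group was read. This left out the libraries numbered 1, 2 or 3 in turn. Of 226 to 245 higher peaks chosen in this way, 57.1% to 61.6% were also at least 2-fold higher at both times in the libraries left out, against 1.23%, 1.15% and 1.18% of all steady peaks. HMGN1-OE lay above wild-type at both times in 95.1% to 95.7%, against 19.4%, 18.7% and 18.3% of steady peaks. Of 242 to 259 lower peaks, 57.6% to 63.2% were at most 0.5 times wild-type in the libraries left out, against 0.972%, 1.03% and 1.03%. On the lower side 93.8% to 96.9% kept their direction at both times, against 28.0%, 31.5% and 42.0% of steady peaks. The median log2 ratio in the libraries left out was 1.24 to 1.37 at 96 h and 1.20 to 1.33 at 0 h for the higher peaks, and 1.30 to 1.32 and 1.35 to 1.43 in the libraries used for the choice. For the lower peaks it was -1.30 to -1.21 at 96 h and -1.72 to -1.51 at 0 h in the libraries left out. The libraries left out share their source of cells with the others, so this reads the spread between libraries and not between lines.

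The rule asked wild-type cells to stay level but set no such limit on HMGN1-OE cells. Their change over 96 h was tested by limma on log2(scaled RPKM + 1) over all 57579 tested peaks, using the same libraries from which the peaks had been chosen. Because of the added 1, changes of weak peaks come out too small. In HMGN1-OE cells 76 of the 233 higher peaks fell by 96 h and 43 rose, against 28.9% of all tested peaks that fell and 31.3% that rose. Among the 239 lower peaks 84 rose and 14 fell. Wild-type cells, which the rule held within 2-fold, also had calls over time at these sites: 11 higher peaks fell and 32 rose, and 81 lower peaks rose and 16 fell, against 29.5% of all tested peaks that fell and 34.2% that rose. At the lower peaks the wild-type counts after TMM scaling were thus close to those of HMGN1-OE cells, and nothing particular to HMGN1-OE is read from them. On the scaled levels of the rule, the median ratio of 96 h to 0 h there was 0.926 in wild-type and 1.32 in HMGN1-OE. It was 0.765 and 0.799 at the higher peaks, and 0.822 and 0.904 over all steady peaks. The direction over time in wild-type cells thus also depended on the scaling. As shares of the TMM calls in HMGN1-OE cells, 32.6% of the higher peaks fell and 18.5% rose, while 35.1% of the lower peaks rose and 5.86% fell. The steady peaks as a whole split into 26.1% falling and 23.0% rising. The median log2 fold change was -0.22 over the higher peaks, 0.27 over the lower peaks and -0.06 over the steady peaks, against -0.03 over all tested peaks. On the RPKM as deposited the split was 144 falling and 9 rising among higher peaks, and 27 rising and 40 falling among lower peaks. Under that scaling 52.2% of all tested peaks fell and 18.4% rose, with their median at -0.53. The balance of the lower peaks thus turned with the scaling, along with that of all tested peaks. The 14 lower peaks that fell became 7 when only the groups compared entered the fit, where 28.6% of all tested peaks fell.

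**Figure D4:**
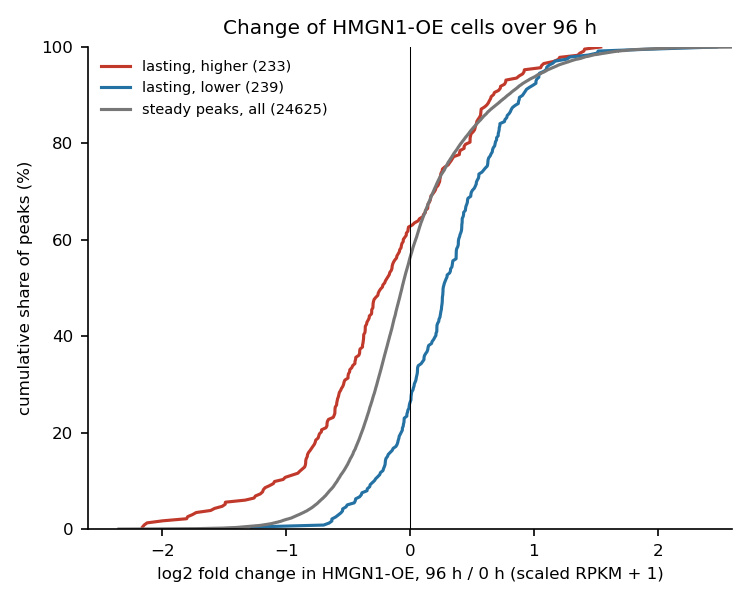
Cumulative share of peaks (%) by limma log2 fold change of HMGN1-OE cells, 96 h over 0 h, after TMM scaling, for the 233 higher (red), 239 lower (blue) and 24625 tested steady (grey) peaks. The red curve runs left of the grey curve below 0 and the blue curve right of it, with medians of -0.22, 0.27 and -0.06.

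Among the higher peaks, the largest rise in HMGN1-OE was on chromosome 1 at 62771057 to 62771944. HMGN1-OE libraries had 9.79, 9.40 and 7.94 at 96 h and 2.77, 3.25 and 3.25 at 0 h, and wild-type libraries stayed at 1.04 to 1.45 at both times (log2 fold change in HMGN1-OE 1.54, SE 0.12, limma adjusted p = 1.57e-09). Next came chromosome 8 at 126321803 (1.41, SE 0.17) and chromosome 4 at 140503863 (1.40, SE 0.25), which also rose on the log2 scale. On the scaled levels their ratios of 96 h to 0 h were 3.16 and 3.37, against 1.76 and 1.66 in wild-type. The largest fall was on chromosome 16 at 8530027 to 8530489, with 0.362, 0.225 and 0.266 in HMGN1-OE at 96 h and 2.40, 2.02 and 2.41 at 0 h (log2 fold change -2.16, SE 0.20, limma adjusted p = 1.85e-08). Its wild-type libraries had 0.0802, 0.109 and 0.162 at 96 h, so that the site came close to the wild-type level without meeting it. Peaks on chromosome 1 at 40185160 (-2.15, SE 0.18) and chromosome 17 at 75168768 (-2.12, SE 0.24) fell in a like manner. Their ratios of 96 h to 0 h were 0.153 and 0.142, against 0.735 and 0.530 in wild-type.

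Among the lower peaks, the largest rise was on chromosome 19 at 23047965 to 23048542. HMGN1-OE libraries had 1.94, 2.23 and 1.31 at 96 h and 0.0621, 0.256 and 0.0575 at 0 h (log2 fold change 2.47, SE 0.18, limma adjusted p = 5e-10). Wild-type libraries had 4.06, 4.71 and 4.86 at 96 h and 7.48, 7.32 and 5.85 at 0 h, so the ratio of HMGN1-OE to wild-type was 0.403 at 96 h and 0.0182 at 0 h. Rises of 1.97 (SE 0.18) on chromosome 6 at 41864912 and of 1.52 (SE 0.15) on chromosome 11 at 28483852 followed on the log2 scale. On the scaled levels their ratios of 96 h to 0 h were 5.60 and 5.52, against 1.31 and 1.34 in wild-type. The largest fall was on chromosome 18 at 81768521 to 81769125, where HMGN1-OE libraries had 0.381, 0.465 and 0.560 at 96 h and 1.85, 1.43 and 1.48 at 0 h (log2 fold change -1.28, SE 0.14, limma adjusted p = 1.26e-07). At that site the wild-type mean also fell, from 4.35 at 0 h to 2.74 at 96 h. In HMGN1-OE cells the site on chromosome 8 at 107995088 also fell, with -0.65 (SE 0.11). Its ratio of 96 h to 0 h was 0.587 in HMGN1-OE and 0.584 in wild-type, so both genotypes shared that fall. One on chromosome 11 at 31033824 had -0.70 (SE 0.32), which was not called (limma adjusted p = 0.0668), and its HMGN1-OE libraries overlapped between the times.

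Lasting peaks were narrower than the steady peaks and close in width to the listed peaks as a whole. The median width was 400 bp for the higher and 412 bp for the lower peaks, against 566 bp for all steady peaks and 430 bp for all listed peaks, and 64.4% and 64.0% were narrower than 500 bp against 42.4% of steady peaks and 58.9% of all listed peaks. They were found on all autosomes and on chromosome X. As a share of steady peaks, higher peaks ranged from 0.339% on chromosome 14 to 1.78% on chromosome X and 1.72% on chromosome 6. Lower peaks ranged from 0.287% on chromosome 7 to 2.11% on chromosome 12, which held 20 of them. The stretch of chromosome 12 from 17516683 to 29976243, singled out after its values were seen, held 7 lower and 5 higher peaks among 62 steady peaks. Over its 163 peaks the median log2 ratio was 0.03 at 96 h and -0.12 at 0 h.

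Some lasting peaks lay side by side. Another peak of the same direction was found within 50 kb of 39 of the 233 higher peaks and of 24 of the 239 lower peaks, and one of the opposite direction within 50 kb of 5 and 3. The longest runs of neighbouring listed peaks that were all lasting had 4 peaks, both higher, on chromosome 6 at 52161423 to 52176305 and on chromosome 1 at 62747753 to 62771944. No run of lower peaks was longer than 2.

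The 200 kb window with most higher peaks was on chromosome 6 from 52000001 to 52200000. It held 5 of them among 10 peaks, and the group means of all 10 lay above wild-type at both times. Of peaks at a level of 1 or more that were not lasting, 22.4% did so. At 6 of the 10, all HMGN1-OE libraries lay above all wild-type libraries at both times, against 4.48% of all 60072 peaks. In the run, the peak at 52175942 to 52176305 had 1.70, 1.57 and 1.86 in HMGN1-OE at 96 h, against 0.221, 0.139 and 0.310 in wild-type. With estradiol present, at 0 h, it stood at 2.12, 2.08 and 1.85 in HMGN1-OE, against 0.170, 0.238 and 0.110 in wild-type. The most open of the run, at 52171394 to 52172214, had 1.54, 1.89 and 2.01 in HMGN1-OE at 96 h, against 0.784, 0.616 and 0.733 in wild-type. At 0 h that peak stood at 3.34, 4.02 and 3.60 in HMGN1-OE, against 1.08, 1.25 and 1.14 in wild-type. Over the window, which was picked for its members, the median log2 ratio was 1.61 at 96 h and 1.49 at 0 h. At 96 h the peaks at 52190317 and 52195144 had log2 ratios of 0.08 and 0.14, and their libraries overlapped between the genotypes. Within HMGN1-OE cells 3 of the 4 peaks of the run fell over 96 h, by 0.61, 0.84 and 0.85 on the log2 scale. On the scaled levels their ratios of 96 h to 0 h were 0.565, 0.456 and 0.496, against 0.545, 0.830 and 0.613 in wild-type. The peak at 52175942 had a change of -0.14 (SE 0.19) in HMGN1-OE, which was not called.

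On chromosome 1 from 62600001 to 62800000, 4 of 9 peaks were lasting and higher, and 8 of 9 lay above wild-type by group means at both times, 7 of them without overlap of libraries. The other peaks of its run had ratios of 3.69 to 4.93 at 96 h and 2.78 to 4.06 at 0 h. On chromosome 5 from 36200001 to 36400000 the group means of all 16 peaks lay above wild-type at both times, 9 of them without overlap of libraries, and 3 were lasting. Both windows were picked for their members. The shares to set beside them are again 22.4% for group means and 4.48% for libraries without overlap. There, wild-type steadiness and the 2-fold limit decided membership: the median log2 ratio over the window was 1.09 at 96 h and 1.37 at 0 h. Windows with 3 or 4 higher peaks were also found on chromosomes 6, X, 12 and 7.

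For the lower peaks, the most uniform window was on chromosome 8 from 95200001 to 95400000, also picked for its members. The group means of all 7 peaks lay below wild-type at both times, 6 of them without overlap of libraries, and 3 were lasting. Group means lay below wild-type at both times in 33.1% of peaks at a level of 1 or more that were not lasting. Libraries lay below without overlap at both times in 5.87% of all peaks. The peak at 95342139 to 95342442 had 0.551, 0.925 and 1.25 in HMGN1-OE at 96 h, against 3.78, 3.73 and 3.01 in wild-type. At 0 h the levels were 0.708, 0.454 and 0.629 in HMGN1-OE, against 3.50, 4.23 and 3.39 in wild-type. The peak at 95377086 to 95377587 had 0.167, 0.0415 and 0.0817 in HMGN1-OE at 96 h, against 1.12, 1.27 and 0.824 in wild-type. The median log2 ratio over the window was -1.95 at 96 h and -2.36 at 0 h. A window on chromosome 12 from 35600001 to 35800000 also held 3 lower peaks, but among its 10 peaks 3 lay above wild-type at both times.

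**Figure D5:**
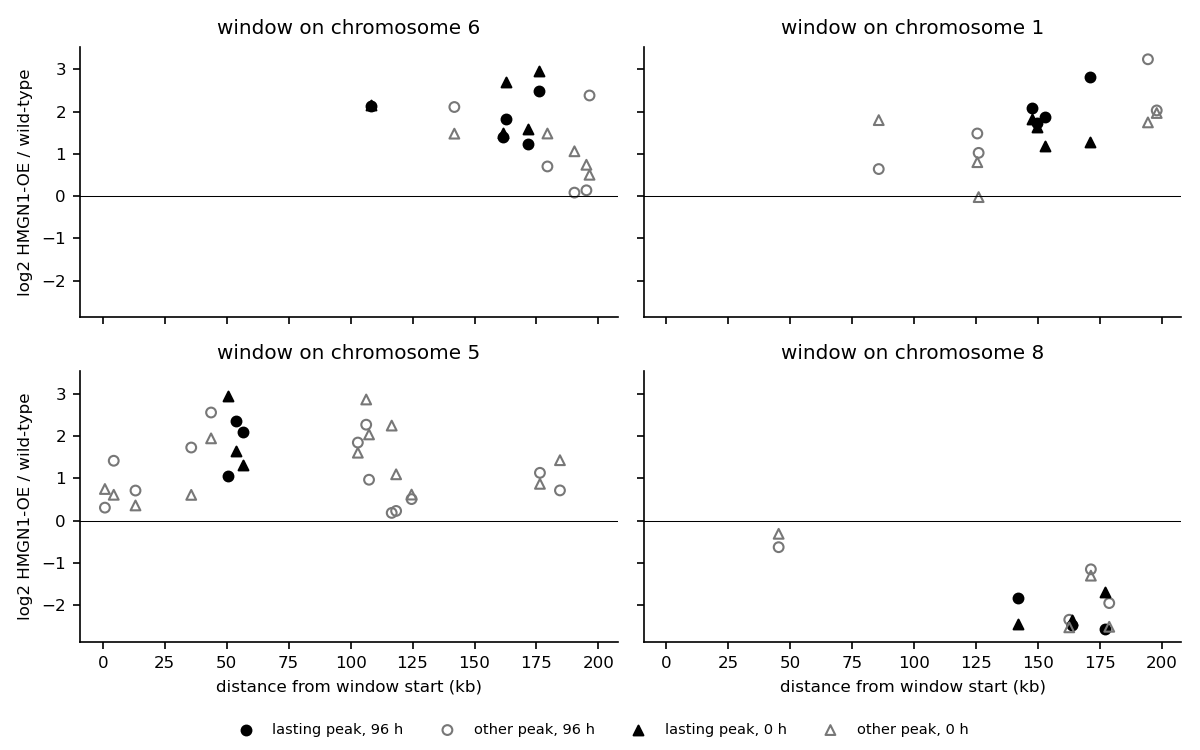
Log2 ratio of HMGN1-OE to wild-type mean scaled level (0.1 added to each) by distance from the start of the window (kb), for 3 windows rich in higher peaks and 1 in lower peaks, with circles for 96 h, triangles for 0 h and filled symbols for lasting peaks. All 10 peaks of the chromosome 6 window and all 16 of the chromosome 5 window lie above 0 at both times, and all 7 of the chromosome 8 window below 0.

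Opposite directions could lie next to each other. On chromosome X a lower peak at 72994556 to 72995183 had 0.0667, 0.0995 and 0.0980 in HMGN1-OE at 96 h, against 1.23, 0.934 and 0.539 in wild-type. The next listed peak, at 72995608 to 72996009, was a higher one, with 1.33, 1.11 and 0.893 in HMGN1-OE at 96 h, against 0.492, 0.377 and 0.281 in wild-type. The genotypes did not overlap at either peak. At 0 h the lower peak had 0.229, 0.0314 and 0.0265 in HMGN1-OE, against 1.15, 1.22 and 1.01 in wild-type. The higher peak then had 1.56, 1.57 and 1.45 in HMGN1-OE, against 0.360, 0.646 and 0.259 in wild-type.

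The nearest listed peak that was not itself lasting was read as well. It lay within 10 kb of 121 higher peaks, with a median log2 ratio of 0.37 at 96 h and 0.12 at 0 h, and it was above wild-type at both times in 53.7%, against 22.4% of all peaks that were not lasting and reached a level of 1. For 104 lower peaks the neighbour had a median log2 ratio of -0.26 at 96 h and -0.41 at 0 h. It was below wild-type at both times in 59.6%, against 33.1%. Over all peaks that were not lasting and reached a level of 1, the median was 0.03 at 96 h and -0.16 at 0 h. Neighbouring peaks share libraries and position, and these shares are given as a description.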

How the data were processed

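The authors deposited a single table of RPKM values for 60072 peaks in 12 ATAC-seq libraries, 3 per group. Per the study's methods and notes, libraries were made by Omni-ATAC and processed with ChiLin, BWA and MACS on mm9. For peak merging, transposase shifts and duplicates, the treatment is not given in the sources used here. RPKM times width gave whole multiples of 1 step in 100% of values in every library (tolerance 0.001), so library totals and reads were recovered. The precision of a peak is limited by its reads, with a median of 32 to 63.5 per library.

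Members were chosen by the rule in the text, on library columns divided by their medians. Members and lists were chosen with earlier results of these data known. Fits used limma 3.58.1 (R 4.3.3; trend and robust moderation) on log2(TMM-scaled RPKM + 1), 4 group means, all 12 libraries and no block, on 57579 peaks with at least 10 reads, in the equivalent of the median library, in 3 libraries and at least 15 reads in all. This removed 2493. TMM was computed on recovered reads, trimming 30% on the ratio and 5% on the level. Adjusted p-values are Benjamini-Hochberg, two-sided, called under 0.05. With replicates whose source is not fully described, the p-values measure the spread between these libraries. The fit and the rule were also run on simulated data. Those data were simpler than these libraries, so nothing about weak peaks is read from them. A count model planned as an alternative was not run. In its place limma-voom on the recovered reads was added after seeing the data. Gene lists, markers and motifs were not analysed, for want of an annotation of mm9.

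The 10 named peaks per direction had non-overlapping libraries at both times and a largest group mean of at least the median of their set, and were ranked by the smaller absolute log2 ratio (0.1 added), with 1 per 200 kb window. Also named were the 3 largest rises and falls of HMGN1-OE, peaks at the limit, runs and windows. For the libraries left out, the background is all steady peaks. Alternatives were a replicate block, other scalings, pseudocounts, filters, limits of the rule, a fit of 2 groups alone, and 1 library left out at a time. Figures were drawn with matplotlib 3.10.9.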

Additional observations from a re-analysis of the deposited data

Results flagged for a closer look

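For 15 of the 46 named peaks, the change over 96 h differed between the genotypes by limma's interaction term, after adjustment over all tested peaks. In all tested peaks, 16.7% had such a call, 9.2% above 0 and 7.46% below. Of the 233 higher peaks 2.15% were called above 0 and 10.3% below, and of the 239 lower peaks 8.37% and 1.67%. The rule restricts this difference, since it kept wild-type cells within 2-fold and the gap on the same side at both times. Nothing is therefore read from these shares. The rule or the size of the HMGN1-OE change chose the named peaks with the same libraries, so the calls are no independent evidence. Values are the log2 change over 96 h in HMGN1-OE minus that in wild-type.

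Among the higher peaks the difference was -1.65 at 93967957 of chromosome 15. It was -2.43 for the peak that starts at 8530027 on chromosome 16, and -2.06 for the one at 40185160 of chromosome 1. Differences of -1.996 (chromosome 17, 75168768) and -0.86 (chromosome 6, 52162730) had the same sign. On the other side were 1.30 (chromosome 1, 62771057), 0.74 (chromosome 8, 126321803) and 1.36 (chromosome 5, 142516035). A peak just outside the limit had -1.87 (chromosome 7, 139547858).

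Among the lower peaks the difference was 2.77 for the peak that starts at 23047965 on chromosome 19. Values of 1.33 (chromosome 6, 41864912), 0.87 (chromosome 11, 28483852), 0.70 (chromosome 2, 174120683) and 0.54 (chromosome 7, 29478407) were also above 0, and that of chromosome 18 at 81768521 was -0.93. The call held at 7 of the 15 under the 3 other scalings tried (RPKM as deposited, median-ratio size factors and division by each library's median). The other 8 lost it under 1 of the 3.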

How the results depend on the processing

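The number of lasting peaks followed the limits of the rule. A minimum level of 2 left 81 higher and 103 lower peaks, a fold of 1.5 gave 637 and 649, a fold of 3 gave 72 and 88, and steadiness within 1.5 in wild-type cells gave 130 and 151. RPKM as deposited in the rule gave 153 higher peaks, 80 of them among the 233. Leaving out 1 library at a time gave 220 to 240 higher and 233 to 251 lower peaks.

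On the RPKM as deposited, 133 higher peaks were called at 96 h, against 2.01% of all tested peaks. In HMGN1-OE over time 144 higher peaks fell and 9 rose, and 27 lower peaks rose and 40 fell. Of all tested peaks 52.2% fell and 18.4% rose under that scaling. The 14 lower peaks that fell became 7 in a fit of only the groups compared and 7 with limma-voom. In each of these fits 28.6% of all tested peaks fell. Leaving out 1 library gave 207 to 223 higher and 228 to 237 lower peaks called at 96 h. At 0 h it gave 222 to 230 and 211 to 229. Of all tested peaks, these fits called 7.72% to 10.9% above 0 and 7.46% to 11.2% below at 96 h. At 0 h the shares were 7.43% to 11.2% above and 7.97% to 11.6% below. Over time 59 to 79 higher peaks fell and 33 to 45 rose, while 75 to 82 lower peaks rose and 10 to 15 fell. In those fits 25.8% to 29.1% of all tested peaks fell and 29.2% to 31.4% rose. Asking only for the same direction in the libraries left out gave 95.7%, 95.1% and 95.1% of higher peaks and 96.9%, 93.8% and 93.8% of lower peaks. The cause of these differences was not tested beyond the construction of each alternative.

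Replicate numbers did not pair the libraries: same-numbered deviations correlated at -0.04 to 0.06. A replicate block gave 225 higher and 238 lower calls at 96 h (10.9% above 0 and 11.0% below over all tested peaks). At 0 h it gave 230 and 228 (10.6% and 11.5% over all tested peaks). Over time 79 higher peaks fell and 41 rose, and 80 lower peaks rose and 15 fell. Of all tested peaks 29.0% fell and 31.3% rose in that fit. The planned count model was not run. Named log2 fold changes were compared only for the peaks with the widest gap and the largest rises and falls. The alternatives were RPKM as deposited, a pseudocount of 0.25, the replicate block and the fits without a library. No direction reversed in these. Of the values compared, 712 were classed as the same, 65 as moved and 3 as stronger. Direction was not compared for the other named peaks or in the other fits. Depth limits the low side, since the lower genotype held a median of 16 reads per library at higher peaks and 18 at lower peaks.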
